A study of Mus musculus with 18 samples.

Results

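Nuclear receptors are transcription factors that sense hormones, vitamins, bile acids, oxysterols and fatty acids, or that act with no known ligand. Many bind DNA beside a retinoid X receptor, and a bound ligand makes them release corepressors and take up coactivators such as the steroid receptor coactivators and the PPARγ coactivator encoded by *Ppargc1a*. In liver they govern bile acid, lipid, glucose and drug metabolism and link these to the circadian clock. The genes described here are a list of 36 nuclear receptors and coregulators chosen by name, with earlier results of these data known. The share of the list that was called therefore describes these genes and is not an independent test. A gene was measured where the platform annotation gave it a probe set with its symbol alone, and where several did, the brightest on average stood for it. This held for 34 of the 36 genes, 29 receptors and 5 coregulators, among 18193 genes with such a probe set. The receptor *Nr1h2* and the corepressor *Ncor1* were not analysed here.

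Total RNA came from Hepa-1c1c7 cells, a line from a mouse liver tumor, and from *c*35 cells. The *c*35 line is a mutant derivative of Hepa-1c1c7 whose aryl hydrocarbon receptor (AHR) cannot bind DNA. Wild-type cells and *c*35 cells each received the vehicle DMSO, TCDD at 5 nM or BaP at 5 µM, both AHR ligands dissolved in DMSO, for 8 hr, and cells given DMSO alone are called naive. For wild-type cells with TCDD no label states a dose, and that of the study's methods was taken. Each of the 6 groups had 3 arrays, described by the study as biological replicates. Because *c*35 is a single derivative line, the AHR mutation cannot be told apart from any other difference between the lines, and in RNA of whole cultures fewer expressing cells cannot be told apart from less RNA per cell. All values are log2 signals of robust multiarray averaging, differences between lines are wild-type minus *c*35, and a gene was called at a Benjamini-Hochberg adjusted p below 0.05 from limma and a change above 1.5-fold.

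Arrays of wild-type cells correlated with one another at r = 0.991 to 0.997, arrays of *c*35 cells at 0.995 to 0.998, and arrays of different lines at 0.969 to 0.980, over probe sets, which are not independent. The AHR target *Cyp1a1* rose in wild-type cells from a mean of 9.73 to 13.0 under TCDD and 13.4 under BaP. In *c*35 cells it was at 8.32, 8.34 and 4.87 on the naive arrays and at 8.32 on BaP array 3, against 5.25 to 6.23 on the other BaP arrays and 5.39 to 6.11 under TCDD. *Tiparp*, another AHR target, was high on the same 3 arrays, at 10.3 to 10.4. Member results and named responses that use these arrays are therefore also given without some or all of them. Albumin (*Alb*), a hepatocyte protein, had a mean of 13.6 in naive wild-type and 11.2 in naive *c*35 cells, and of 12 measured hepatocyte markers *Alb* was higher and *Fgb*, at 4.02 against 4.98, lower in naive wild-type cells. Among markers of other liver cells, 2 of 5 for cholangiocytes (*Krt19*, *Krt7*) and 2 of 6 for macrophages and leukocytes (*Csf1r*, *Cd68*) were lower in naive wild-type cells, of 7 for stellate cells and fibroblasts *Pdgfrb* was higher (1.20) and *Col3a1* lower (-1.29), and of 4 for endothelial cells limma called 0, with 1 at an unadjusted p under 0.05, where 14.0% of all genes were called. The mean log2 signal over the cholangiocyte list was 6.65 to 6.74 on naive wild-type and 7.13 to 7.26 on naive *c*35 arrays, and over the macrophage list 6.19 to 6.31 and 6.70 to 6.75, and the part of these markers in the results was not tested.

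In naive cells the lines differed in 13 of the 34 genes, 8 of them higher and 5 lower in wild-type cells, or 38.2% of the list against 14.0% of all 18193 genes, of which 7.52% were higher and 6.52% lower. The genes higher in wild-type cells included every coregulator measured, together with *Esr1*, *Rora* and *Rxrb*, whereas the genes lower in wild-type cells were the receptors *Nr1h4*, *Nr1d1*, *Vdr*, *Rara* and *Nr1h3*. The median difference over the 34 genes was -0.10, against -0.03 over all genes, since most members lay near 0 or slightly below it. On the naive arrays the lines did not overlap in 11 genes that were higher and 9 that were lower in the wild type, where 22.6% and 24.8% of all genes were. Of the 34 genes, 25 had a mean signal at or above the median of all probe sets. Among these 25 genes 12 were called, or 48.0%, against 20.7% of all genes of that brightness. The brightness is a mean over the arrays of both lines, so a gene high in either line can pass through that line alone. *Ppargc1a*, with group means of 4.06 to 4.46 in *c*35 cells, passed in this way and was called. *Rora*, at 5.39 to 5.44 in *c*35 cells, lay there near *Nr5a2*, which fell short with a mean of 5.44. The 48.0% is therefore not independent of the line difference. The 9 dimmer genes were *Nr1i2*, *Nr1i3*, *Ppara*, *Pparg*, *Thrb*, *Rarb*, *Nr2f1*, *Nr5a2* and *Vdr*, of which *Vdr* alone was called. The SD within a group of 3 arrays ran from 0.00922 to 0.426 over members and groups, with a median of 0.0925, beside a median of 0.0948 over all genes. The plot of line differences by role shows each member under DMSO, TCDD and BaP.

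**Figure D1:**
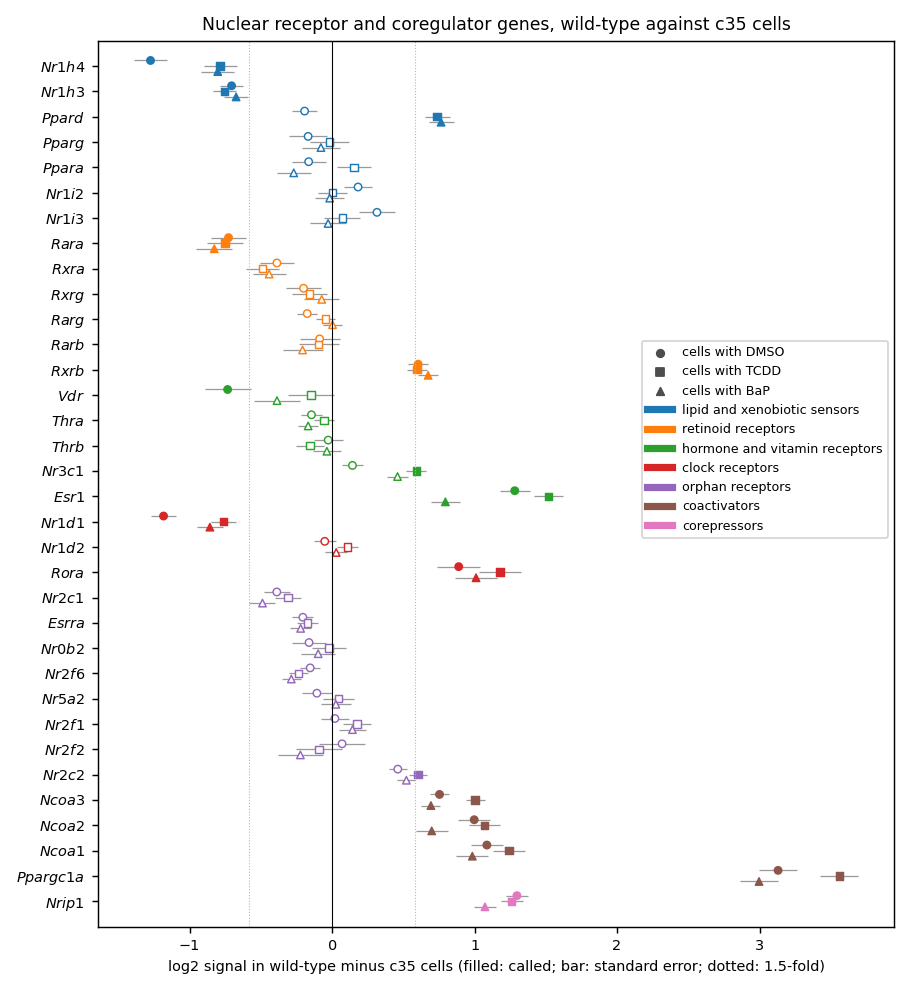
Difference in log2 signal between wild-type and *c*35 cells (x axis) for the 34 measured genes (y axis, coloured by role), with a circle for DMSO, a square for TCDD and a triangle for BaP. Bars are standard errors from limma, filled symbols are called and dotted lines mark 1.5-fold. All 5 coregulators lie to the right under each treatment, *Ppargc1a* farthest at 3.00 to 3.56, and *Ppard* moves from -0.19 without ligand to 0.74 and 0.76 with ligand.

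All 4 measured coactivators were higher in naive wild-type cells. *Ppargc1a*, whose product drives mitochondrial and gluconeogenic genes together with several receptors, had signals of 7.41, 7.25 and 7.14 on the naive wild-type arrays and of 4.16, 4.48 and 3.77 on the naive *c*35 arrays. The groups lay far apart, with a difference of 3.13 on the log2 scale (standard error 0.13, adjusted p = 2.53e-13 from limma). The *c*35 signals were in the dim range of the array and are not shown to lie above background, so no fold is given for the difference. All 5 probe sets of *Ppargc1a* were called higher, by 1.66 to 3.65.

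The steroid receptor coactivators encoded by *Ncoa1*, *Ncoa2* and *Ncoa3* recruit histone acetyltransferases to receptors that hold a ligand. *Ncoa1* stood at 7.69, 7.51 and 7.52 in naive wild-type cells and at 6.54, 6.42 and 6.50 in naive *c*35 cells, a difference of 1.09 (standard error 0.11, adjusted p = 1.29e-07 from limma). *Ncoa2* stood at 8.52, 8.62 and 8.53 against 7.75, 7.59 and 7.34, a difference of 0.997 (adjusted p = 4.18e-07 from limma). *Ncoa3* stood at 9.09, 9.13 and 9.09 against 8.31, 8.35 and 8.39, a difference of 0.75 (adjusted p = 1.33e-08 from limma). Each of the 3 genes kept the lines apart without overlap, as the plot of coregulator signals shows. Their other probe sets did not all follow. For *Ncoa1*, 1 further probe set was called higher, at 0.59, but the 3 further probe sets of *Ncoa2* differed by -0.18 to 0.12 and the other probe set of *Ncoa3* by -0.32, none of them called. With the mean of all probe sets in place of the brightest, the difference was 0.58 for *Ncoa1*, 0.25 for *Ncoa2* and 0.21 for *Ncoa3*, and none of the 3 was called.

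*Nrip1* encodes a receptor-interacting protein that mostly represses metabolic genes and was the only corepressor measured. It was also higher in naive wild-type cells, at 10.85, 10.78 and 10.75 against 9.53, 9.49 and 9.47. The lines did not overlap, and the difference was 1.30 (standard error 0.08, adjusted p = 5.42e-11 from limma). Of its 6 probe sets, the 2 brightest were called higher, by 1.30 and 0.89, and the remaining 4 differed by -0.13 to 0.49 with no call. The mean of its probe sets gave 0.50, which was not called.

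**Figure D2:**
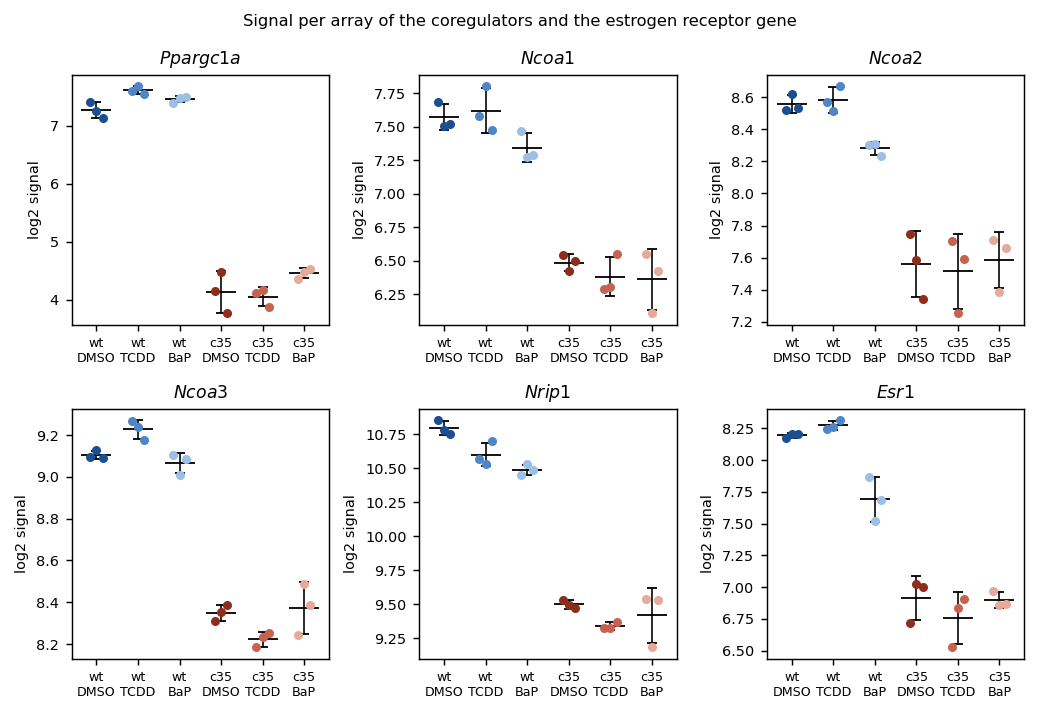
Log2 signal (y axis) of *Ppargc1a*, *Ncoa1*, *Ncoa2*, *Ncoa3*, *Nrip1* and *Esr1* on each array, by line and treatment (x axis; wt, wild-type), with the mean and SD of the 3 arrays of a group. In all 6 panels every wild-type array lies above every *c*35 array, and *Esr1* on the wild-type BaP arrays, at 7.52 to 7.87, lies below the other wild-type arrays.

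Among the 7 measured sensors of lipids and xenobiotics, 2 were lower in naive wild-type cells and none was higher. *Nr1h4*, the bile acid receptor FXR, had signals of 5.50, 5.80 and 5.53 in naive wild-type cells and of 6.84, 6.82 and 6.98 in naive *c*35 cells. These groups were well separated, and the difference was -1.27 (standard error 0.12, adjusted p = 2.35e-08 from limma). *Nr1h3*, the oxysterol receptor LXRα, stood at 5.72, 5.90 and 5.87 against 6.52, 6.50 and 6.59, a difference of -0.71 (adjusted p = 6.56e-07 from limma), again without overlap. *Nr1h4* and *Nr1h3* have 1 probe set each. The other 5 sensors were not called. They are the drug sensors *Nr1i2* (PXR) and *Nr1i3* (CAR) and the fatty acid receptors *Ppara*, *Ppard* and *Pparg*, and *Nr1i3* had the largest difference of the 5 at 0.31 (adjusted p = 0.0635 from limma).

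Of 6 retinoid receptors 1 was called higher and 1 lower in naive wild-type cells. *Rxrb*, a shared partner of many receptors, was higher in naive wild-type cells, at 9.39, 9.26 and 9.35 against 8.74, 8.71 and 8.75, a difference of 0.60 (adjusted p = 4.89e-07 from limma). The arrays did not overlap, but the difference lay just past 1.5-fold and fell to 0.58 with each array centred on its median or without wild-type DMSO replicate 1, which ended the call. *Rara*, a receptor for retinoic acid, was lower in naive wild-type cells, at 6.44, 6.43 and 6.26 against 7.19, 7.01 and 7.11, a difference of -0.73 (adjusted p = 8.85e-05 from limma). *Rxra*, *Rxrg*, *Rarb* and *Rarg* were not called, and the largest of their differences was that of *Rxra*, at -0.39 (adjusted p = 0.0126 from limma). The brightest probe set of *Rarg* gave -0.18, whereas its other probe set, with a naive mean of 6.86 in wild-type and 7.96 in *c*35 cells, gave -1.10 and was called lower.

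Among 5 receptors for hormones and vitamin D, *Esr1* was higher and *Vdr* lower in naive wild-type cells. *Esr1*, the estrogen receptor ERα, stood at 8.18, 8.20 and 8.21 against 6.72, 7.02 and 7.00, with no overlap and a difference of 1.28 (standard error 0.10, adjusted p = 4.14e-09 from limma). A further probe set of *Esr1* was called higher, at 0.98, and a dim one differed by -0.25 with no call. *Vdr*, the vitamin D receptor, stood at 4.29, 5.14 and 4.66 against 5.40, 5.51 and 5.38, a difference of -0.73 (adjusted p = 0.00110 from limma). The naive wild-type arrays of *Vdr* spread more than those of any other member, and without wild-type DMSO replicate 1 the difference was -0.53 and was not called. The thyroid hormone receptors *Thra* and *Thrb* and the glucocorticoid receptor *Nr3c1* were not called, with *Thra* at -0.14 and *Nr3c1* at 0.14. The brightest probe set of *Nr3c1* hid a disagreement, since 2 other probe sets were called lower, by -1.09 and -0.99, and the other 3 differed by -0.24 to 0.23 with no call.

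Of 3 clock receptors 1 was called higher and 1 lower in naive wild-type cells. *Nr1d1*, the repressor REV-ERBα, was lower in naive wild-type cells, at 6.82, 6.81 and 6.67 against 8.01, 8.01 and 7.82, a difference of -1.18 (standard error 0.09, adjusted p = 1.53e-09 from limma). *Rora*, an activator that competes with it for the same sites, was higher, at 6.60, 6.21 and 6.18 against 5.30, 5.55 and 5.47, a difference of 0.89 (adjusted p = 6.57e-05 from limma). Both genes separated the lines on every naive array. *Nr1d2*, the close relative of *Nr1d1*, differed by -0.05 and was not called. *Rora* has 9 probe sets, of which 3 were called higher and the other 6 differed by -0.12 to 0.44. Their mean of 0.36 was not called.

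None of the 8 orphan receptors was called in naive cells by limma, and 4 had an unadjusted p under 0.05, as did 44.8% of all genes. The largest differences were those of *Nr2c2* (TR4) at 0.46 (adjusted p = 5.27e-06 from limma) and its relative *Nr2c1* (TR2) at -0.39 (adjusted p = 0.00192 from limma), both under 1.5-fold. The estrogen-related receptor *Esrra*, a partner of the *Ppargc1a* product, differed by -0.21. *Nr0b2*, the small heterodimer partner that FXR induces, differed by -0.16, with a 95% interval of -0.41 to 0.09. For *Nr2f2* (COUP-TFII) the brightest probe set differed by 0.07, whereas 4 of the other 5 were called higher, by 0.65 to 1.07. The brightest probe set of *Nr2c1* also lay opposite to its others, of which 2 of 4 were called higher, by 0.59 and 0.79, and 1 of 4 probe sets of *Nr5a2* was called higher, at 0.84. Of the 34 genes, 22 had more than 1 probe set, and none had probe sets called in both directions.

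**Figure D3:**
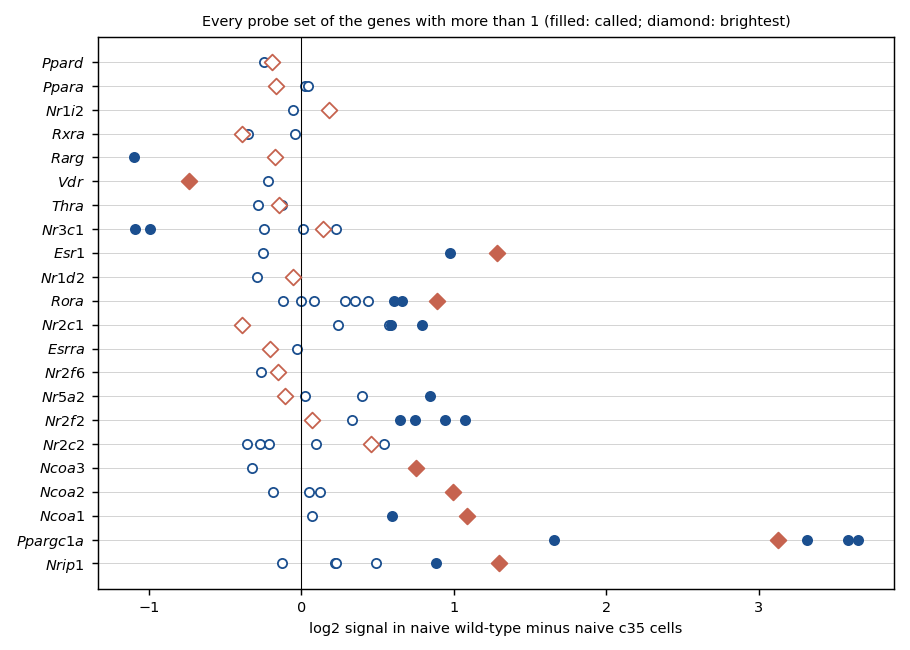
Difference in log2 signal between naive wild-type and naive *c*35 cells (x axis) for every probe set of the 22 genes with more than 1 (y axis). Red diamonds are the brightest probe set of a gene, which stands for it in the text, and filled symbols are called. The 5 probe sets of *Ppargc1a* all lie above 1.6, whereas for *Nr3c1*, *Rarg*, *Nr2f2*, *Nr2c1* and *Nr5a2* called probe sets lie beside an uncalled brightest one.

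The 13 naive calls fell to 7, of which 5 were higher and 2 lower, when the difference was tested against 1.5-fold rather than against 0, and the share of all genes fell to 6.57%. The 3′ minus 5′ signal of the *Actb* control, which widens as RNA breaks down, moved with the line, at 1.01 ± 0.32 (SD, n = 3) on naive wild-type and 0.39 ± 0.05 (SD, n = 3) on naive *c*35 arrays. With it as a covariate 9 genes were called, beside 13.9% of all genes, and *Rxrb* (0.47), *Rora* (0.50), *Rara* (-0.53) and *Vdr* (-0.20) were not. Without the 3 *c*35 arrays on which *Cyp1a1* was high, 1 naive *c*35 array is left, assumed to vary like the rest. The 13 genes then kept their directions, with *Ppargc1a* at 3.50 and *Rxrb* at 0.59, and *Vdr*, at -0.68, was not called.

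The line difference was measured again on the TCDD arrays and on the BaP arrays, none of which entered the naive means, although the limma fit shares 1 estimate of the spread over all arrays. Under TCDD 15 genes were called, 11 higher and 4 lower in wild-type cells, or 44.1% against 15.0% of all genes, 8.65% higher and 6.32% lower. Under BaP 13 were called, 9 higher and 4 lower, or 38.2% against 15.8% of all genes, 8.98% higher and 6.83% lower. Of the 13 genes called in naive cells, 12 were called in the same direction under both ligands, 8 of them higher and 4 lower, and 0 in the opposite direction. The exception was *Vdr*, with a difference of -0.15 under TCDD and -0.39 under BaP. How many of all genes called in naive cells were called again was not counted. The 12 of 13 are therefore no result about this list in particular. *Ppargc1a* differed by 3.56 under TCDD and 3.00 under BaP, and *Ncoa1* by 1.24 and 0.98. *Nr1h4* differed by -0.79 and -0.80, less than the -1.27 in naive cells, and the tests of that change are those of its ligand response. Under TCDD the additional calls were *Ppard* at 0.74, *Nr2c2* at 0.60 and *Nr3c1* at 0.59, and under BaP *Ppard* alone, at 0.76. These additional calls rest on the brightest probe sets. Averaged over their probe sets, *Nr3c1* gave -0.073 (adjusted p = 0.611 from limma), *Nr2c2* 0.12 (adjusted p = 0.127) and *Ppard* 0.37 under TCDD and 0.31 under BaP, none of them called. *Nr2c2* was also lost, at 0.56 to 0.58, without *c*35 TCDD replicate 2 or 3 or wild-type TCDD replicate 2, and at 0.57 with each array centred on its median, or at 0.58 with the *Actb* covariate. Tested against 1.5-fold, 7 genes were called under TCDD and 4 under BaP, beside 7.27% and 7.51% of all genes. With the probe sets of each gene averaged they were 8 and 6, beside 11.8% and 12.4%. With the *Actb* covariate they were 12 and 11, beside 16.2% and 16.4%. It ended the calls of *Rxrb* under both ligands, of *Rara* and *Nr2c2* under TCDD and of *Nr1h3* under BaP. Without the *c*35 BaP array on which *Cyp1a1* was high, 13 were called under BaP, beside 16.1% of all genes.

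**Figure D4:**
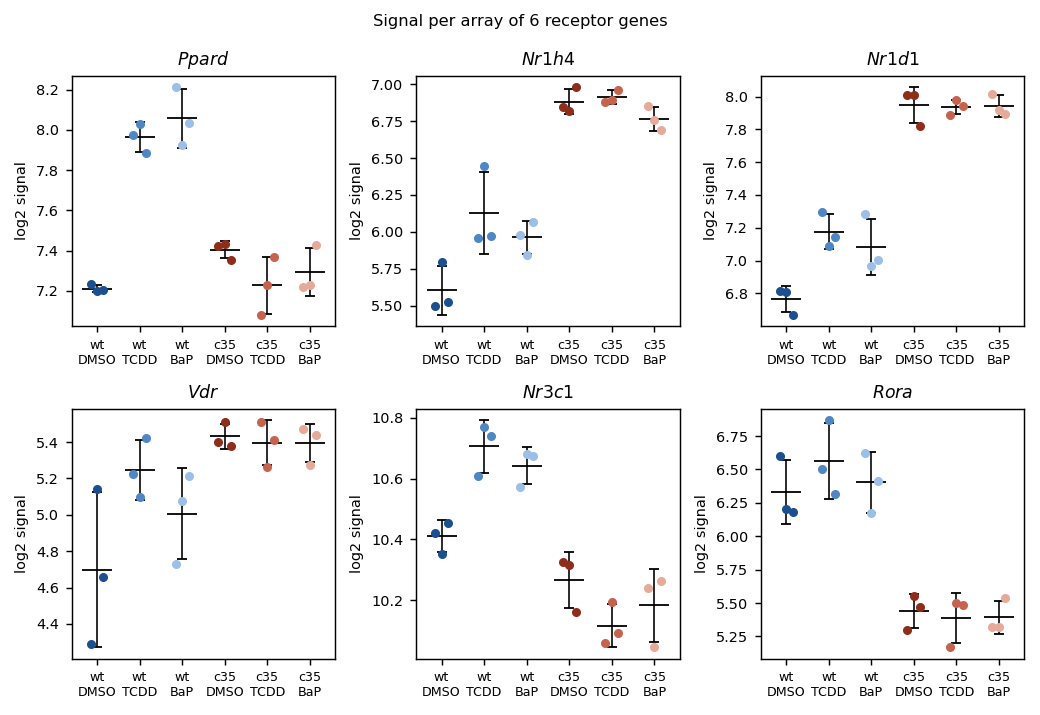
Log2 signal (y axis) of *Ppard*, *Nr1h4*, *Nr1d1*, *Vdr*, *Nr3c1* and *Rora* on each array, by line and treatment (x axis; wt, wild-type), with the mean and SD of the 3 arrays of a group. The wild-type TCDD and BaP arrays of *Ppard*, at 7.88 to 8.21, lie above all the other *Ppard* arrays, which reach 7.43.

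*Ppard* was the only gene of the list called in wild-type cells after either ligand. Its product, PPARδ, is a fatty acid receptor that switches on fatty acid oxidation. *Ppard* had signals of 7.23, 7.20 and 7.20 on the wild-type DMSO arrays, of 7.98, 8.03 and 7.88 with TCDD, and of 8.21, 7.93 and 8.03 with BaP. The ligand arrays all lay above the DMSO arrays, and the TCDD and BaP arrays overlapped. TCDD raised it by 0.75 (standard error 0.09, adjusted p = 9.12e-05 from limma) and BaP by 0.85 (adjusted p = 4.51e-06 from limma), in comparisons that share the DMSO arrays. The share of all genes called was 0.379% under TCDD and 1.32% under BaP, and without wild-type DMSO replicate 2 that under TCDD was 0.857%.

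In *c*35 cells *Ppard* stood at 7.42, 7.43 and 7.35 with DMSO, at 7.08, 7.23 and 7.37 with TCDD, and at 7.22, 7.23 and 7.43 with BaP. These arrays overlapped, and the changes were -0.18 with TCDD (95% interval -0.36 to 0.01) and -0.11 with BaP (95% interval -0.30 to 0.07). The response in wild-type cells minus that in *c*35 cells was 0.93 for TCDD (adjusted p = 0.000847 from limma, standard error 0.12), and for BaP it was 0.96 (adjusted p = 0.000200 from limma), and *Ppard* was again the only gene of the list called, where 0.280% and 1.34% of all genes were. Without the 3 *c*35 arrays on which *Cyp1a1* was high, the TCDD difference was 0.88 (adjusted p = 0.0544 from limma) and no longer passed, whereas that with BaP was 0.98 (adjusted p = 0.0113 from limma) and was called, and the shares of all genes fell to 0.0879% and 0.434%. The second, dimmer probe set of *Ppard* stayed between 4.80 and 5.28 on all arrays and changed by 0.23 with TCDD and 0.03 with BaP, with no call. Averaged over both probe sets *Ppard* rose by 0.49 and 0.44, under 1.5-fold.

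Other members changed in wild-type cells by less than 1.5-fold or failed the adjusted threshold. *Nr1d1* rose by 0.41 under TCDD (adjusted p = 0.0330 from limma) and 0.32 under BaP (adjusted p = 0.0415), from DMSO signals of 6.67 to 6.82 to signals of 7.09 to 7.30 and 6.97 to 7.28. *Nr1h4* rose by 0.52 with TCDD (adjusted p = 0.0392 from limma), with arrays at 5.96, 6.45 and 5.97 against 5.50, 5.80 and 5.53, and differed by 0.36 with BaP (adjusted p = 0.0899). Neither gene overlapped with its DMSO arrays under either ligand, where 10.4% of all genes lay wholly above theirs under TCDD and 11.5% under BaP. In *c*35 cells *Nr1h4* differed by 0.03 and -0.11 and *Nr1d1* by -0.01 and -0.01. The difference between the lines in the response of *Nr1h4* was 0.49 with TCDD (adjusted p = 0.462 from limma) and 0.47 with BaP (adjusted p = 0.197), and for *Nr1d1* it was 0.42 (adjusted p = 0.334) and 0.33 (adjusted p = 0.271), and neither was called. Without the 3 *c*35 arrays high in *Cyp1a1* these differences were 0.59 and 0.53 for *Nr1h4* and 0.30 and 0.17 for *Nr1d1*, again with no call. Without wild-type DMSO replicate 2, *Nr1h4* rose by 0.62 and *Vdr* by 0.77 with TCDD, both then called, and *Nr1h4* was also called at 0.60 without wild-type TCDD replicate 1 or 3.

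The estrogen receptor gene separated the ligands. *Esr1* stood at 8.25, 8.27 and 8.32 in wild-type cells with TCDD and at 7.87, 7.52 and 7.69 with BaP, beside 8.18 to 8.21 with DMSO. The BaP arrays lay below all others of the line. *Esr1* differed from DMSO by 0.08 under TCDD, whereas under BaP it fell by 0.50 (adjusted p = 0.00534 from limma), the latter a change under 1.5-fold that passed it, at -0.59, without wild-type BaP replicate 1. TCDD minus BaP gave 0.59 (standard error 0.10, adjusted p = 0.00636 from limma), the only call of the list in this comparison, where 0.258% of all genes were called, at doses that differ between the ligands. This value lay at the 1.5-fold limit and was not called without wild-type BaP replicate 2 (0.50) or 3 (0.58) or without wild-type TCDD replicate 3 (0.57). In *c*35 cells *Esr1* stood at 6.53 to 6.91 with TCDD and 6.86 to 6.97 with BaP, beside 6.72 to 7.02 with DMSO. Its BaP response in wild-type minus *c*35 cells was -0.49 (adjusted p = 0.117 from limma), and -0.42 without the 3 *c*35 arrays high in *Cyp1a1*, with no call in either case. *Nrip1*, which estrogen receptors induce, was at 10.75 to 10.85 with DMSO, at 10.45 to 10.53 with BaP and at 10.53 to 10.70 with TCDD in wild-type cells. Both ligand groups lay below the DMSO arrays, with differences of -0.31 under BaP (adjusted p = 0.0243 from limma) and -0.19 under TCDD (adjusted p = 0.299), neither of them called. Of all genes 12.3% lay wholly below their DMSO arrays under BaP and 7.95% under TCDD. *Nrip1* in *c*35 cells was at 9.47 to 9.53 with DMSO, 9.32 to 9.37 with TCDD and 9.18 to 9.53 with BaP. Its TCDD arrays thus lay below the DMSO arrays in *c*35 cells too, where 6.53% of all genes did. A link between *Nrip1* and *Esr1* was not tested.

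For ligands in *c*35 cells a call needed an adjusted p below 0.1 and no least fold. By this rule limma called 0 of the 34 genes under TCDD and 0 under BaP, as it did among all genes, where the share was 0% for both. One member in each comparison had an unadjusted p under 0.05, *Nr3c1* at -0.15 with TCDD and *Ppargc1a* at 0.32 with BaP, where 5.16% and 3.53% of all genes did. Without the 3 *c*35 arrays on which *Cyp1a1* was high, 0 members were called with either ligand. Changes over the 34 genes lay between -0.18 and 0.21 with TCDD and between -0.13 and 0.32 with BaP. With those 3 arrays left out, which leaves 1 naive *c*35 array, they lay between -0.30 (*Nr2f1*) and 0.34 (*Nr1i3*) with TCDD. With BaP they then lay between -0.32 (*Nr2f1*) and 0.66 (*Ppargc1a*). In wild-type cells the changes lay between -0.19 and 0.75 with TCDD and between -0.50 and 0.85 with BaP.

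Promoter sequences are shown for *Ppard*, which was called with both ligands, for the coactivator genes *Ppargc1a* and *Ncoa1*, and for the bile acid receptor gene *Nr1h4*, so that their base composition and motif letters can be compared. They are from RefSeq on GRCm38.p6 and run from 250 bases before to 50 after a gene's start, on the gene's strand. *Ppard* lies at chr17:28232504-28232803 on the plus strand, *Ppargc1a* at chr5:51567676-51567975, *Ncoa1* at chr12:4477133-4477432 and *Nr1h4* at chr10:89506609-89506908, all 3 on the minus strand. Capitals mark GCGTG or its reverse complement CACGC, the core letters that AHR and its partner ARNT bind, and AGGTCA or its reverse complement TGACCT, the letters on which many nuclear receptor sites are built.
Ppard: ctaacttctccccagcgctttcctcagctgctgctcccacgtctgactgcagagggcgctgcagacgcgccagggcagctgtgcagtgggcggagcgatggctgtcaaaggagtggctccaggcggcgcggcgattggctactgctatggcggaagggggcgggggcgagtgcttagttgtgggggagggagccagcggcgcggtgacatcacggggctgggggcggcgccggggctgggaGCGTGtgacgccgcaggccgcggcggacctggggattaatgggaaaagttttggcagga
Ppargc1a: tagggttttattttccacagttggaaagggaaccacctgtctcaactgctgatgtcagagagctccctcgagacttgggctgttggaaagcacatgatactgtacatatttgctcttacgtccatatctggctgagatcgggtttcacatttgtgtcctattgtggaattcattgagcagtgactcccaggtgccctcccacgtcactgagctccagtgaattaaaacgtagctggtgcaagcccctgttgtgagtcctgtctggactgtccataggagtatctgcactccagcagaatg
Ncoa1: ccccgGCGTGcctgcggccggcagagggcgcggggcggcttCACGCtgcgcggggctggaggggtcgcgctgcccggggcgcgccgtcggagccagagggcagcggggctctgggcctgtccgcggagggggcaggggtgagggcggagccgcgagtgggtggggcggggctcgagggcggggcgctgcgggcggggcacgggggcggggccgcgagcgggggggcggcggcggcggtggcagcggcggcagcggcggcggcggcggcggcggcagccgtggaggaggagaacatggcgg
Nr1h4: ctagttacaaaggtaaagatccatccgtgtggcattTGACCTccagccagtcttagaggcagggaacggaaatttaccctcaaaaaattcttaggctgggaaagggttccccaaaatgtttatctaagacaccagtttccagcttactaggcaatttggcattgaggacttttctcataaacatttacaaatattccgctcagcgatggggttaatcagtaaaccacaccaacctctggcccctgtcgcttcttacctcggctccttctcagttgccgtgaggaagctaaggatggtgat

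The window of *Ppard* held GCGTG once, starting 9 bases before the gene's start. That of *Ncoa1* held GCGTG at 245 and CACGC at 209 bases before the start, that of *Nr1h4* held TGACCT at 214 bases before it, and that of *Ppargc1a* held none of these letters. Bases G and C made up 68.3% of the *Ppard* window, 84.7% of that of *Ncoa1*, 48.7% of that of *Ppargc1a* and 45.7% of that of *Nr1h4*, beside a median of 52.7% over all 32851 windows. Windows were found for 30 of the 34 genes, 45 windows in all. GCGTG or CACGC was in a window of 21 of these 30 genes (70.0%) and in 35.2% of 27025 genes, or 32.4% of all windows. It was in 8 of the 11 genes with a window that were called in naive cells and in 13 of the 19 that were not. AGGTCA or TGACCT was in a window of 9 of the 30 genes (30.0%) and in 18.1% of all genes, or 16.3% of all windows, with 2 of 11 among the called and 7 of 19 among the uncalled. Both strands were searched, and in the windows of these genes no match of one motif overlapped a match of the other. A match describes these letters only.

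Other genes of these pathways were counted from 12 lists of further receptors, coregulators and known target genes, which hold 1 of the members, *Esrra*, among the ERR targets. These lists too were chosen with earlier results known. In naive cells 14.0% of all genes were called, 7.52% higher and 6.52% lower, and a count near these shares is no result about a list. Of 15 further nuclear receptors, 2 were lower in naive wild-type cells, the immediate early orphan receptors *Nr4a1* (-1.38) and *Nr4a2* (-1.56). *Nr4a1* rose by 0.78 with BaP in wild-type cells. Of 20 further coregulators, 4 were higher and 0 lower: the acetyltransferase genes *Kat2b* (0.97) and *Ep300* (0.72), the histone methyltransferase gene *Nsd1* (1.89) and the Mediator subunit gene *Med1* (0.91). Their median difference was 0.33, against -0.03 over all genes. *Ppargc1b*, the relative of *Ppargc1a*, fell by 0.70 with BaP in wild-type cells.

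Target lists held calls in both directions, as the plot of calls by list shows, beside the 14.0% of all genes called in naive cells. Of 11 LXR targets, *Lpl* (0.82) was higher and *Scd1* (-0.86) and *Lpcat3* (-0.66) lower in naive wild-type cells, where *Nr1h3* was lower. Of 10 FXR and bile acid targets only the sterol hydroxylase gene *Cyp27a1* (0.88) was called, where *Nr1h4* was lower. Of 9 PXR and CAR targets 1 was called, the transporter gene *Abcc3* (-0.80). Of 12 genes of ERRs and the *Ppargc1a* product 1 was called, the respiratory chain regulator *Gabpa* (1.01), beside the difference of 3.13 in *Ppargc1a* itself. Of 15 PPAR targets 2 were higher and 1 lower, the pantetheinase gene *Vnn1* (3.42), the kinase gene *Pdk4* (1.78) and the carnitine transferase gene *Cpt1a* (-0.93). *Vnn1* was also the only PPAR target called with a ligand in wild-type cells, rising by 0.71 under TCDD (adjusted p = 0.00575 from limma) and 0.99 under BaP (adjusted p = 4.14e-05), where *Ppard* rose.

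**Figure D5:**
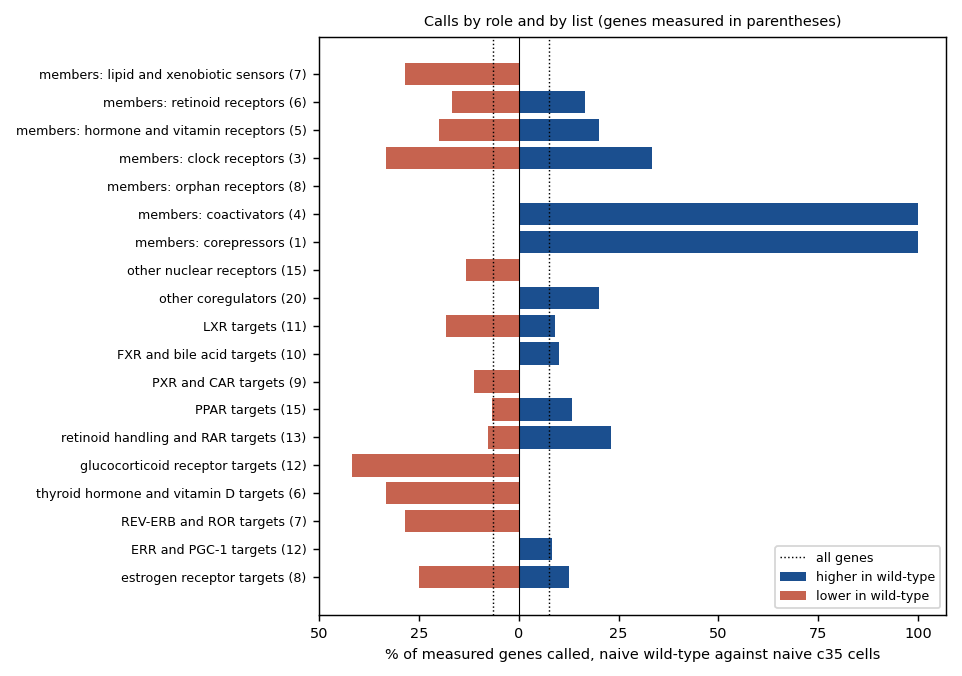
Share of the measured genes of each role and each further list that was called in naive wild-type against naive *c*35 cells (x axis, percent; higher to the right, lower to the left), with the number measured in parentheses and dotted lines at 7.52% and 6.52%, the shares of all genes called higher and lower. Coactivators and the corepressor *Nrip1* lie wholly to the right, orphan receptors have no call, and glucocorticoid receptor targets are among those that lie wholly to the left.

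Of 13 genes of retinoid handling and RAR targets, 3 were higher and 1 lower in naive wild-type cells, namely the retinol dehydrogenase gene *Rdh10* (1.23), the retinal dehydrogenase gene *Aldh1a1* (0.93), the transglutaminase gene *Tgm2* (0.72) and the retinol carrier gene *Rbp4* (-0.64). With a ligand in wild-type cells *Rdh10* fell by 0.65 with TCDD and by 0.76 with BaP, and *Rbp4* rose by 0.66 with BaP. Of 12 glucocorticoid receptor targets 5 were lower and 0 higher, or 41.7% against 14.0% of all genes, while the brightest probe set of *Nr3c1* was not called. The 4 with the largest differences were the metallothionein genes *Mt1* (-2.05) and *Mt2* (-3.29), which metals also induce, *Tsc22d3* (-1.12) and *Dusp1* (-1.09). The naive wild-type arrays scattered in *Mt1* (SD 0.976) and *Mt2* (SD 0.455), against 0.107 and 0.167 on naive *c*35 arrays. *Mt1* had means of 9.85 in wild-type and 11.9 in *c*35 cells with DMSO, 10.8 and 12.0 with TCDD, and 10.6 and 11.9 with BaP. *Mt2* had 8.45 and 11.7, 9.05 and 11.8, and 8.85 and 11.7. *Klf9* of this list rose by 0.73 with BaP in wild-type cells. Of 6 targets of thyroid hormone and vitamin D, *Gpd2* (-0.97) and *Hr* (-0.83) were lower. Of 7 targets of REV-ERB and ROR receptors, the clock output genes *Dbp* (-1.22) and *Nfil3* (-1.11) were lower. Of 8 estrogen receptor targets, *Igfbp4* (1.16) was higher and *Xbp1* (-1.52) and *Greb1* (-0.80) were lower, where *Esr1* was higher. *Greb1* also fell with ligand in wild-type cells, by 0.59 with TCDD and 0.73 with BaP.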

How the data were processed

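The arrays were Affymetrix mouse expression arrays, 18 in number. The authors deposited a single table of log2 signals, which the submitters' processing notes credit to robust multiarray averaging (RMA) with no version named. These log2 values were used as deposited. The tests covered 45037 probe sets, leaving aside 64 Affymetrix controls. Symbols came from the platform annotation, where 34945 probe sets had 1 symbol, 932 several and 9160 none, and the symbols of all 34 measured members matched current gene names.

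limma 3.58.1 (R 4.3.3, data.table version 1.17.8) was used to fit a mean for each of 6 groups, with an intensity trend in eBayes, after a test on simulated data. Adjustment was by Benjamini-Hochberg within each of 10 comparisons, over every probe set tested. A call needed an adjusted p below 0.05 together with more than 1.5-fold, or, for ligands in *c*35 cells, an adjusted p below 0.1 alone. Shares of all genes use 1 probe set a gene, the brightest on average. Full values are given for members called in naive cells or with a ligand, others by range or where largest in their role, and up to 4 called genes of each further list. The members and lists were chosen with earlier results of these data known. Alternatives were the prior variance, array weights, scaling, a brightness filter, a gene's probe sets averaged, the fold limit, only the compared arrays, a replicate block and each array left out. The *Actb* covariate and the set without 3 *c*35 arrays were chosen after seeing the data. No 2 arrays were identical, and the number of arrays limits the precision. Sequence windows came from a RefSeq collection on GRCm38.p6, and figures were drawn with matplotlib 3.10.9 (pandas 2.3.3).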

Additional observations from a re-analysis of the deposited data

Results flagged for a closer look

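*Ppard* differed between the lines in its response to ligand by a test of the difference itself. The TCDD response in wild-type minus *c*35 cells was 0.93 on the log2 scale (95% interval 0.67 to 1.19, adjusted p = 0.000847 from limma), and the BaP response differed by 0.96 (95% interval 0.70 to 1.22, adjusted p = 0.000200 from limma). Both differences hold the same DMSO arrays. Every wild-type ligand array lay above the wild-type DMSO arrays, and the *c*35 arrays overlapped. The other probe set of *Ppard* gave 0.25 and 0.10, with no call.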

How the results depend on the processing

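The counts were recomputed under 31 alternatives, 18 of which left out 1 array. Leaving out 1 array gave 11 to 13 calls in naive cells, 13 to 15 between the lines under TCDD and 13 under BaP. Of all genes 13.5% to 14.8%, 15% to 15.4% and 15.2% to 16.1% were then called. In wild-type cells it gave 1 to 3 for TCDD, 1 to 2 for BaP and 0 to 1 for TCDD against BaP. The shares of all genes were 0.308% to 0.857%, 1.18% to 1.69% and 0.176% to 0.319%. For either ligand in *c*35 cells it gave 0, beside 0% of all genes. Each difference in response had 1 call, beside 0.198% to 0.434% of all genes for TCDD and 0.984% to 1.71% for BaP. The lowest naive count was without wild-type DMSO replicate 1. With the probe sets of a gene averaged, 9 were called in naive cells, 8 under TCDD and 6 under BaP, beside 11.4%, 11.8% and 12.4% of all genes. The counts were then 0 for TCDD, BaP or TCDD against BaP in wild-type cells, beside 0.291%, 0.973% and 0.17%. They were 1 for the TCDD response and 0 for the BaP response between the lines, beside 0.324% and 1.04%. *Nr3c1* under TCDD turned to -0.073. The test against 1.5-fold called 7, 7 and 4 between the lines, beside 6.57%, 7.27% and 7.51% of all genes, and 0 in the ligand comparisons and responses. With no minimum change, 3 were called for TCDD and 4 for BaP in wild-type cells, beside 1.03% and 6.48% of all genes. Median centring left 0 for TCDD against BaP, beside 0.264% of all genes. Without the 3 *c*35 arrays high in *Cyp1a1*, 0 were called for the TCDD response between the lines. The cause of these changes was not tested. Of 46 called member results, 37 lost the call under at least 1 alternative and 1 reversed. Replicates with the same number did not deviate together (correlations -0.26 to 0.22), and with the replicate number as a block the counts were 13, 15 and 13 between the lines, 1 in each wild-type comparison, 0 in *c*35 cells and 1 for each response. Genes of low signal, such as *Vdr*, limit what could be called.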
